A study of Homo sapiens with 2 samples.

Results

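The first 50 nt of an mRNA lie directly behind the cap. Here they were examined as single cytosines in RNA bisulfite sequencing (BS-Seq) of 2 human breast cell lines. A member was a cytosine with a coverage of at least 10 counts in the first 50 spliced nt of the canonical transcript of a protein-coding gene, on the transcribed strand and more than 50 nt upstream of the start codon. Of 1584007 exonic or mitochondrial cytosines kept in MCF10A, 13072 were members, from 1714 genes. Of 1271304 in MDA-MB-468, 7314 were members, from 968 genes. Either line held 15521 members from 1978 genes, and 4865 members from 704 genes were kept in both. Of 19540 canonical protein-coding transcripts, 19449 had an annotated start codon and 15819 had it far enough downstream to hold a member. No measured conversion value entered the choice, only the annotated position and the coverage.

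MCF10A is an immortalised, non-tumorigenic mammary epithelial line, and MDA-MB-468 is a breast cancer line. Both came from ATCC, and the cells received no treatment. Their RNA was kept in bisulfite at 60 °C for 8 hours. The labels give DMEM for both lines, while the methods give DMEM/F12 for MCF10A and RPMI for MDA-MB-468. There was 1 library of poly(A)-selected, bisulfite-treated RNA for each line and no replicate, so a difference between them compares 2 libraries and has no replicate check. EGFR, which MDA-MB-468 is known to overexpress, stood at 219 CPM in MCF10A (the kept counts of a gene scaled to those of the library) and at 3523 CPM in MDA-MB-468. CDKN2A and MTAP, both lost in MCF10A, had kept sites in MDA-MB-468 only, and the hormone receptors ESR1 and PGR had none in either line. GATA3, a luminal marker like these receptors, had kept sites in both, at 2.18 CPM in MCF10A and 113 CPM in MDA-MB-468. Of the markers of other cell types, CD3E, PTPRC and HBA1 had no kept site and the fibroblast collagen COL1A1 had kept sites in MDA-MB-468 only, at 98.7 CPM. Of the basal markers, KRT5 stood at 253 CPM in MCF10A against 117 CPM in MDA-MB-468, KRT17 at 154 against 1995 and KRT15 at 22.2 against 408. KRT6A had 68.4 CPM in MCF10A and no kept site in MDA-MB-468, and KRT14 and TP63 had none in either line. The keratins KRT7, KRT8 and KRT18 stood at 2559, 171 and 78.2 CPM in MCF10A, against 6044, 2084 and 1217 CPM in MDA-MB-468. VIM, a mesenchymal marker also made by MCF10A, stood at 5609 CPM there and had no kept site in MDA-MB-468.

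Bisulfite turns cytosine into uracil, while 5-methylcytosine (m5C) stays a cytosine and is counted as unconverted. A paired or otherwise inaccessible cytosine can also escape conversion, so an unconverted count is a measure of m5C only where conversion was complete. The cap-proximal stretch is where the cap-binding complex loads the small ribosomal subunit, which then scans to the start codon. In the mRNAs of ribosomal proteins and elongation factors it begins with a cytosine and a run of pyrimidines, the terminal oligopyrimidine (TOP) motif, through which growth signals control translation. In many other mRNAs it is rich in G and C.

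The stretches below carry the results that follow. Each is 30 bases of the GRCh37 reference (the hg19 build of the files), from the 5′ UTR in the first exon of the gene. They are written 5′ to 3′ on the mRNA strand. Capitals mark members called unconverted in the named library by the test described further on. EIF1, TPT1, EGR1, BRI3 and EI24 were called in both lines, with blocks of neighbouring calls. SEC61G, COTL1 and CRABP2 differed between the libraries. In SEC61G the first 3 cytosines are the only members, since the others lie within 50 nt of the start codon at nt 61. Those others are in lower case as non-members, not as converted. All 17 kept SEC61G sites within 50 nt of the start codon were called in MCF10A, and all 18 in MDA-MB-468. PFN1 was among the deepest windows with no call.
EIF1, nt 15 to 44, plus strand, chr17:39845151-39845180, both lines: gCCgCCgCCgaggattCagCagCCtCCCCC
TPT1, nt 16 to 45, minus strand, chr13:45915274-45915303, MCF10A: cCCCCtCCCCCCgagCgCCgCtCCggCtgC
EGR1, nt 21 to 50, plus strand, chr5:137801188-137801217, MDA-MB-468: acttggggagCCgCCgCCgCCatcCgCCgC
BRI3, nt 20 to 49, plus strand, chr7:97911017-97911046, MCF10A: ggtccgccgcgtccCCgCCgCCgCCgCCgc
EI24, nt 8 to 37, plus strand, chr11:125439380-125439409, MCF10A: gcgcagCggCCCCggCCCtggaagcgcccc
SEC61G, nt 1 to 30, minus strand, chr7:54826875-54826904, both lines: atCagCaagCtccagtgctacgtgtccctg
COTL1, nt 20 to 49, minus strand, chr16:84651636-84651665, MDA-MB-468: ctcgcagcttgcaggcgccgcgtagCCgtC
CRABP2, nt 21 to 50, minus strand, chr1:156675326-156675355, MCF10A: aCttgtCttggttCCagaaCCtgaCgaCCC
PFN1, nt 21 to 50, minus strand, chr17:4851776-4851805, no call in either line: ccggacggcagcgcgtgccccgagctctcc

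Coverage fell toward the cap. Among 3809 MCF10A mRNAs with a kept site and a start codon beyond nt 150, 3.09% of the cytosines at nt 1 to 10 were kept, 20.2% of those at nt 41 to 50 and 25.1% of those at nt 51 to 100. The shares over 3444 MDA-MB-468 mRNAs were 2.28%, 12.9% and 16.3%. The median coverage of a member was 17 in MCF10A and 15 in the MDA-MB-468 library, against 18 over all kept sites of each line. Where 10 counts covered a cytosine, a call needed at least 4 unconverted ones, a methylation ratio of 40%, and where 50 did it needed 6, a ratio of 12%. A lower ratio was not detectable at that depth.

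Unconverted counts were a larger share in the first 50 nt than over the transcriptome. The nonconversion rate, that is the summed unconverted counts over all counts, was 3.25% in MCF10A (13148 of 405148, 95% Wilson interval 3.19% to 3.30%) and 3.83% in MDA-MB-468 (6664 of 174156, 3.74% to 3.92%). Over all kept sites it was 1.99% and 1.81%, over the coding sequence (CDS) 1.79% and 1.61%, and over the 3′ UTR 2.06% and 1.71%. The rest of the 5′ UTR stood between, at 2.78% and 2.68%. All intervals here cover counting error only. Counts of neighbouring cytosines come from the same reads, so the intervals are too narrow. At 9 counts, just under the coverage minimum, the rate of cap-proximal cytosines was 4.17% in MCF10A and 4.05% in the MDA-MB-468 library, and at 10 counts it was 3.65% and 3.78%.

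Each site was tested against the summed counts of all kept sites of its library (one-sided Fisher's exact test, Benjamini-Hochberg adjusted over all kept sites, threshold 0.05). In MCF10A 325 members were called, 2.49% (2.23% to 2.77%), where 0.96% of all kept sites were. In MDA-MB-468 the number was 211, or 2.88% (2.53% to 3.29%), where 0.84% were. The called share was 0.581% and 0.529% in the CDS, 0.837% and 0.744% in the 3′ UTR, and 2.01% and 1.80% within 50 nt of the start codon. The rest of the 5′ UTR was the nearest in level, with 2.58% in MCF10A and 2.24% in the MDA-MB-468 library. The regions hold different sites of the same libraries, and their shares were not tested against each other.

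The order of the first 50 nt and the rest of the 5′ UTR in MCF10A turned with the sites compared. Among sites with a coverage of 10 to 19 the called share was 1.63% in the first 50 nt and 2.32% in the rest, while at a coverage of 20 to 49 it was 3.23% and 2.60%, and at 50 or more 4.79% and 3.86%. The ratio of the called shares, first 50 nt over rest, was 0.964 over all sites and 1.27 at a coverage of at least 20. It was 2.23 without the cytosines whose predicted pairing probability was over 0.5. In MDA-MB-468 the ratios were 1.29, 1.53 and 2.33, all above 1.

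**Figure D1:**
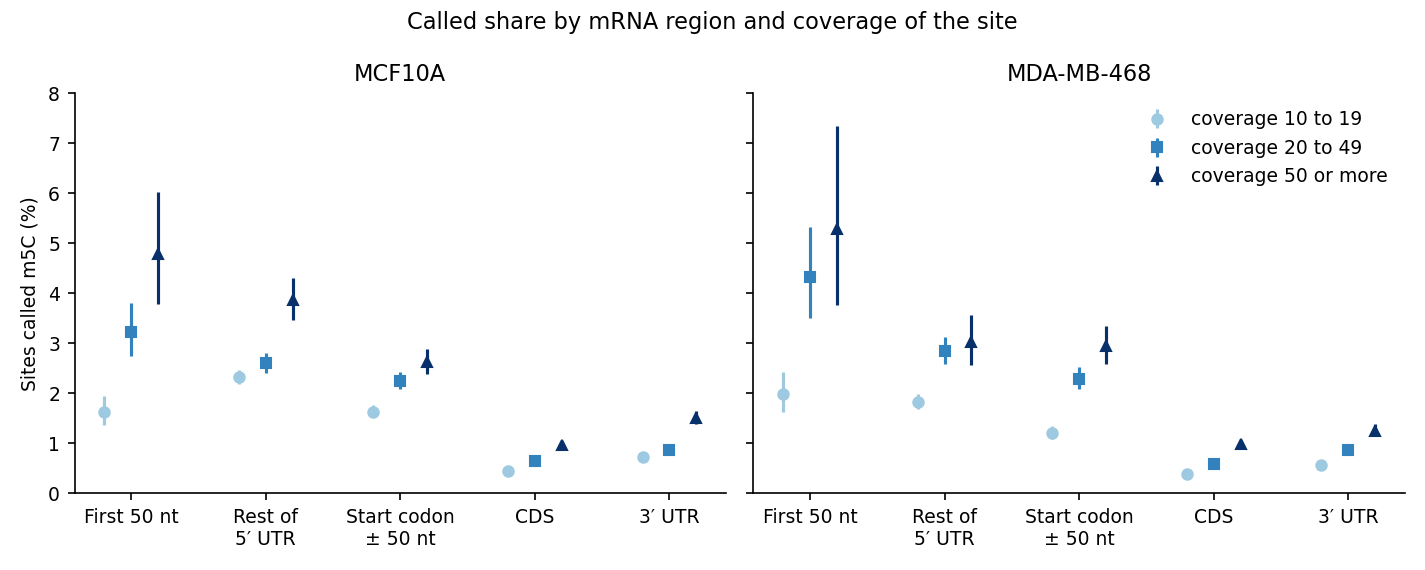
Percent of sites called m5C in 5 mRNA regions of each line, split by the coverage of the site, with 95% Wilson intervals of counting error. In the first 50 nt of MCF10A the share rose from 1.63% at a coverage of 10 to 19 to 4.79% at 50 or more, and crossed that of the rest of the 5′ UTR.

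Along the first 50 nt the called share was lowest next to the start site. At nt 1 to 10 it was 0.961% in MCF10A (9 of 937 sites) and 1.10% in MDA-MB-468 (6 of 544). It reached 3.06% at nt 21 to 30 in MCF10A and 3.28% at nt 31 to 40 in MDA-MB-468. The edge of the window was no step. The rate was 3.14% at nt 41 to 50 and 3.15% at nt 51 to 60 in MCF10A, and 3.75% and 3.86% in MDA-MB-468.

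**Figure D2:**
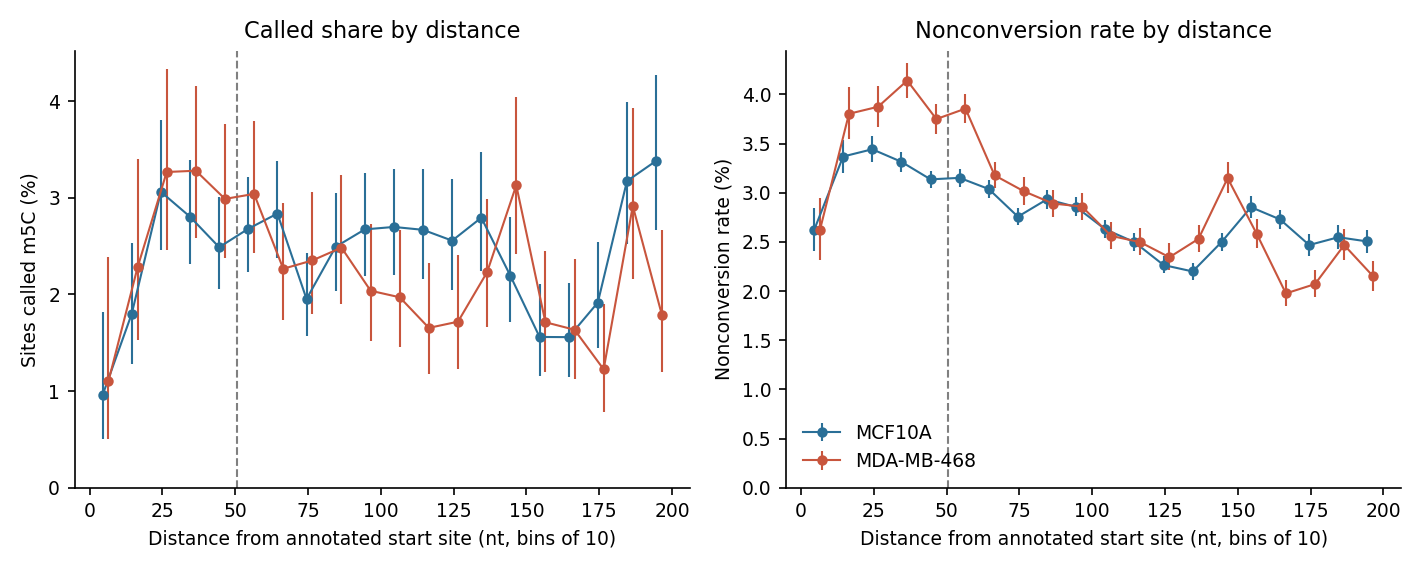
Called share and nonconversion rate in bins of 10 nt from the annotated start site, over 5′ UTR sites more than 50 nt upstream of the start codon, with 95% Wilson intervals of counting error and a dashed line at nt 50. The called share was near 1% in the first bin of each line and between 2% and 4% at nt 21 to 60.

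When the same mRNAs were followed across the edge, the rate was still higher in the first 50 nt. In 765 MCF10A mRNAs with at least 5 kept sites on each side it was 3.34% at nt 1 to 50 and 2.82% at nt 51 to 100, and in 408 MDA-MB-468 mRNAs it was 4.04% and 3.26%. The called share did not follow, at 2.62% and 2.59% in MCF10A, and 3.25% and 3.33% in MDA-MB-468. Nor did the number of unconverted counts per site. It was 1.08 at nt 1 to 50 and 1.24 at nt 51 to 100 in MCF10A, while the mean coverage was 32.3 and 43.7. In MDA-MB-468 it was 1.06 and 1.16 at a mean coverage of 26.3 and 35.5. In the mRNAs without a call in the first 50 nt, a subset picked by the calls themselves, the rate was 2.17% there and 2.34% at nt 51 to 100 in MCF10A, and 2.09% and 2.21% in MDA-MB-468. Per gene, the direction was near even in MCF10A, while in MDA-MB-468 more genes were higher in the first 50 nt. Of 332 MCF10A genes with at least 200 counts in the first 50 nt and in the rest of the 5′ UTR, 174 had the higher rate in the first 50 nt (52.4%, 47.0% to 57.7%). Of 155 in MDA-MB-468, 93 did (60.0%, 52.1% to 67.4%). These Wilson intervals are over genes, which are not replicates.

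Few mRNAs held the calls. In MCF10A they lay in 82 of 1700 genes (4.82%), counting a cytosine shared by several genes for 1 of them, and in MDA-MB-468 in 45 of 964 (4.67%). The 10 genes with the most calls held 125 of the 325 (38.5%) and 109 of the 211 (51.7%). Of the members, 58.6% in MCF10A and 62.0% in the MDA-MB-468 library had no unconverted count, against 64.6% and 69.6% of all kept sites. The median gene had a rate of 1.70% and 1.56%. A called member had a median ratio of 30.8% in MCF10A and 33.3% in the MDA-MB-468 library.

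The calls came in blocks. Another called cytosine lay within 10 nt of 298 of the 325 in MCF10A (91.7%) and of 200 of the 211 in MDA-MB-468 (94.8%). The 27 and 11 others stood alone, and of these RPS20 nt 29, in the mRNA of a small ribosomal subunit protein, stood alone in both lines. There 16 of 303 counts were unconverted in MCF10A (5.28%) and 8 of 86 in the MDA-MB-468 library (9.30%). The RPS20 cytosines at nt 31 to 50 were close to this, at 3.73% to 4.31% and 6.67% to 8.89%. The site thus stood alone by the threshold rather than by its level. Genes with at least 3 calls numbered 43 in MCF10A and 26 in the MDA-MB-468 library. All members were called in 7 and 7 of them, and more than 50% of the members in 21 and 15. Of 30 such MCF10A genes with at least 3 kept sites at nt 51 to 100, 24 had a higher rate in the first 50 nt, while 24 had a higher median coverage at nt 51 to 100. In MDA-MB-468 the numbers were 14 and 15 of 19. These genes were chosen by their calls in the first 50 nt, which favours a higher rate there.

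EIF1, a translation initiation factor that takes part in start codon selection, had the highest rate of the genes with at least 5 members and 200 counts in each line. It was 81.5% in MCF10A (1037 of 1272 counts) and 89.7% in MDA-MB-468 (990 of 1104). All 17 and 16 members were called, with ratios from 70% to 90.5% and from 88.3% to 95.1%. The deepest called members with a ratio of at least 20% in each line were EIF1 cytosines. At nt 44, the last base of the stretch shown, 90 of 111 and 83 of 93 counts were unconverted. The level ran on past the window in both lines. At nt 51 to 75 it was 80.9% and 86.1%, at nt 76 to 100 66.2% and 68.7%, and beyond nt 100 up to nt 150 37.9% and 48.6%. The annotation names 7 pseudogenes of EIF1, and how reads fitting several copies were counted is not given in the sources used here.

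TPT1, the TOP mRNA of the translationally controlled tumour protein, had the most calls in each line, 21 of 24 members in MCF10A and all 18 in MDA-MB-468. Its window rate was 8.73% and 27.6%. The unconverted counts hardly varied while the coverage rose. At nt 31 to 50 they were 24 to 35 at a coverage of 77 to 667 in MCF10A, and at nt 51 to 75 they were 24 to 38 at a coverage of 920 to 1258. In MDA-MB-468 they were 14 to 20 at a coverage of 27 to 117, and 12 to 17 at 158 to 251. The ratio therefore fell along the mRNA, in MCF10A from 67.6% at nt 26 (23 of 34) to 5.25% at nt 50 (35 of 667), and in MDA-MB-468 from 89.5% (17 of 19) to 12% (14 of 117). The annotation names 15 pseudogenes of TPT1, 9 each of YWHAZ and TUBB, 5 of EI24, 3 of BRI3 and 16 of FTL, so their counts carry the same uncertainty, which was not tested.

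TUBB, a beta tubulin, had the same shape. Its unconverted counts were 4 to 7 at nt 31 to 50 and 5 to 9 at nt 51 to 75 in MCF10A, where the median coverage was 68.5 and 127.5. In MDA-MB-468 they were 4 to 5 and 4 to 7, at a median coverage of 22.5 and 42.0. Its window rate was 10.4% and 19.9%. In HMGB2, a high-mobility-group chromatin protein, 1 of 16 members was called in MCF10A and the ratios ran from 5.56% to 13.0%. In MDA-MB-468 5 of 16 were, with 8.33% to 17.2%. SF3B6, a splicing factor subunit, had evenly raised ratios and no call, from 8.33% to 13.6% in MCF10A and from 8.00% to 14.3% in MDA-MB-468.

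EGR1, an immediate-early zinc finger transcription factor, showed a bounded block instead. Its 2 members before nt 31 had 1 of 18 and 1 of 21 unconverted counts in MCF10A and none of 18 and 27 in MDA-MB-468. From nt 31, where the repeated GCC of the stretch shown begins, the rate was 19.3% in MCF10A and 35.3% in the MDA-MB-468 library up to nt 50. At nt 51 to 75 it was 5.30% and 6.04%, with single cytosines up to 21.1% and 28.8%, so the block did not end at the window edge. It was back to 2.28% and 0.798% at nt 76 to 100, at a higher median coverage than at nt 31 to 50 (55 after 31 in MCF10A and 58 after 53 in MDA-MB-468). Within the block the cytosine at nt 44, after the only A and T of the repeat, was low in both lines, with 3 of 35 counts in MCF10A and 4 of 56 in the MDA-MB-468 library. Its neighbours at nt 41 and nt 45 had 6 of 31 and 5 of 34 in MCF10A, and 19 of 54 and 14 of 57 in MDA-MB-468.

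BRI3, which encodes a small membrane protein, had its block in the same kind of repeat. The 13 MCF10A members up to nt 29 had 0 to 2 unconverted counts each. Calls ran from nt 34 to nt 47, with 19 of 80 at nt 41, and in MDA-MB-468 from nt 37 to nt 49, with 10 of 35 at nt 47. Past the window the rate was 4.32% at nt 51 to 75 in MCF10A, but still 17.6% in MDA-MB-468, where all 7 kept sites in the rest of its 5′ UTR were called. The window rate of BRI3 was 10.6% and 13.4%, and 5.93% and 4.41% without cytosines of pairing probability over 0.5. EI24, an endoplasmic reticulum protein induced by p53, had its calls at nt 14 to 25 in MCF10A, with 12 of 27 at nt 23. The 9 members at nt 32 to 50 had 1 or 2 unconverted counts each. In MDA-MB-468 the same cytosines were called, and with them nt 35 and nt 36 (4 of 17 and 4 of 18). At nt 51 to 75 the EI24 rate in MCF10A was 26.9%, at a coverage of 8 to 27, so unconverted counts were not confined to the first block. Its window rate was 17.5% and 32.5%. YWHAZ, a 14-3-3 adaptor protein, had calls from nt 28 to nt 41 in MCF10A and to nt 42 in MDA-MB-468, and a rate of 15% and 43.2%. At nt 51 to 75 it fell to 0.268% and 9.12%.

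**Figure D3:**
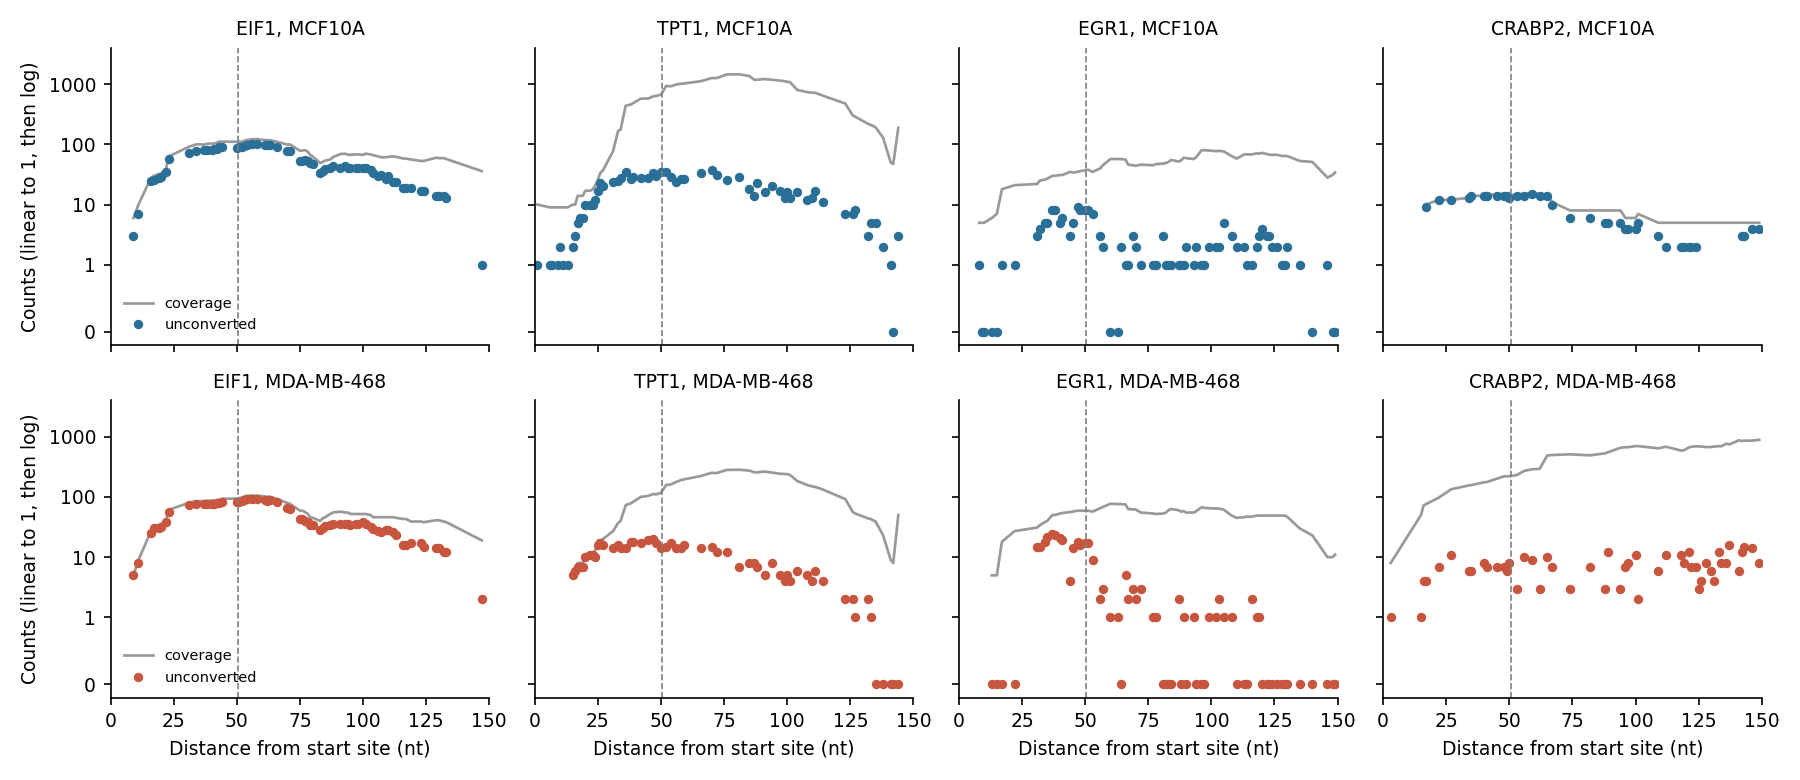
Coverage (grey line) and unconverted counts (points) at each cytosine of 4 mRNAs up to nt 150 from the start site, on an axis that is linear up to 1 and logarithmic above, with a dashed line at nt 50. In EIF1 the points stay close to the line in both libraries, in TPT1 they stay level while the line rises, in EGR1 they peak at nt 31 to 50, and in CRABP2 they follow the line in MCF10A alone.

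Other genes of the highest-rate group had the higher rate in MCF10A. UBXN6, a cofactor of the p97 ATPase, had 6 of 15 members called in MCF10A at 19.8%, and 1 of 11 in MDA-MB-468 at 5.42%. Without cytosines of pairing probability over 0.5 the UBXN6 rates were 5.07% and 1.29%, and at a coverage of at least 20 they were 11.8% and 0.752%. VEGFB, a growth factor of the VEGF family, had 13 of 26 called at 15.5%, and 1 of 20 at 6.20%. PITX1, a homeobox transcription factor, had 5 of 17 called at 16.3% and 4 of 18 at 12%, all at nt 40 to 46 in MCF10A. Its rates without the paired cytosines were 3.85% and 0%. KLHDC3 had no call and a rate of 13.8% and 3.59%, and CD44, a hyaluronan receptor, 1 call in MCF10A and a rate of 11% and 3.81%. None of these 5 had a differential member.

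The 5 windows with the largest summed coverage over both lines and no call differed in depth between the lines. PFN1, the actin-binding profilin, had 20 members in each line, with 111 of 7738 counts unconverted in MCF10A (1.43%, members from 0.601% to 2.83%) and 65 of 2708 in MDA-MB-468 (2.40%, up to 4.46%). The lysosomal protease CTSB had 1.25% over 11150 counts and 1.12% over 713. SAT1, which acetylates polyamines, had 3.04% and 0.987%, the cell cycle inhibitor CDKN1A 1.68% over 4224 counts and 3.03% over 132, and the matrix protein FBLN1 1.29% over 2720 and 3.39% over 383. Their members reached 9.09% and 7.69% in MDA-MB-468.

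The gene lists differed in how many calls they held. Of the 18 TOP and elongation genes with members in MCF10A, 5 had calls (NPM1, RACK1, RPLP2, RPS20 and TPT1), with 38 of 118 members called (32.2%, where 2.49% of all members and 4.82% of all genes were). Of 12 in MDA-MB-468, 5 had calls, RPS20 and TPT1 among them, with 29 of 55 (52.7%, where 2.88% of all members and 4.67% of all genes were). TPT1 alone held 21 of the 38 calls and 18 of the 29. The median gene of the list had a rate of 5.12% and 12.1%, against 1.70% and 1.56% over all genes with members. RACK1, a scaffold protein of the small subunit, had 3 of 5 members called in MCF10A at 4.54% and none of 3 in MDA-MB-468 at 0.862%. NPM1, RPS20 and RACK1 have 49, 19 and 3 annotated pseudogenes, whose part in these counts was not tested.

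Of the initiation factors, taken as all genes whose symbol starts with EIF, 13 had members in MCF10A and 7 in the MDA-MB-468 library. EIF1 was called in both and EIF5A in MDA-MB-468, with 1 cytosine, where 4.82% and 4.67% of all genes had a call. Of the members of this list 18.7% and 34% were called, against 2.49% and 2.88% of all members. The scaffold EIF4G1 had no call, at 1.76% and 1.13%. Of the immediate-early and growth response genes, 15 and 10 had members. EGR1 held all the calls, 9 of 123 members (7.32%) and 12 of 79 (15.2%), against the same 2.49% and 2.88%. The oncogene MYC had 12 members in MCF10A at 2.01% and 1 in MDA-MB-468. The median gene of the 2 lists was at 1.79% and 2.50%, and at 3.29% and 2.57%, against 1.70% and 1.56% over all genes with members.

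The remaining lists are to be read against the 2.49% and 2.88% of all members called. In glycolysis 1 of 99 members was called in MCF10A, in PGK1, and 2 of 44 in MDA-MB-468, in ENO1. ENO1, the glycolytic enolase, had a rate of 1.07% over 1957 counts and 8.93% over 515. The chaperones had 1 call among 168 members in MCF10A, in HSP90B1, and none among 120 in MDA-MB-468. The cytoskeleton and adhesion list had 10 calls among 232 members (CFL1, LAMB3, MYL12A, MYL12B and TUBB) and 16 among 145 (MYL12B and TUBB). Of the iron and oxidative defence genes FTL, the ferritin light chain, held all calls, 7 of 52 members and 6 of 40. None of the 38 and 21 members of RNA m5C writers and readers was called, which at so few members is near the general share. Their rates over the list were 0.640% and 1.21%.

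Called cytosines lay where cytosines were dense. With 1 to 5 cytosines in the 21 bases around a member, itself included, 1.19% were called in MCF10A and 0.868% in the MDA-MB-468 library, and with 11 or more 6.59% and 6.98%. The same order held in the rest of the 5′ UTR, where 5.24% and 4.85% of the densest class were called. Without EIF1 and TPT1 the densest members were at 5.48% and 5.40%. Where G and C made up over 90% of these bases, 10.9% of 773 members were called in MCF10A and 9.03% of 465 in the MDA-MB-468 library. Up to 60% the shares were 1.82% and 2.38%. The stretches of EGR1, BRI3 and EI24 shown above are rich in G and C, though calls in EGR1 and EI24 also lie below 90%.

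By trinucleotide, read 5′ to 3′ with the tested cytosine in the middle, the highest shares were those of CCG (4.51% in MCF10A and 5.04% in the MDA-MB-468 library) and GCC (4.28% and 5.19%), and CCC followed (3.36% and 4.15%). GCG, the most frequent context, was at 1.79% and 1.63%. The share was 2.56% for members followed by G and 2.46% for the others in MCF10A, and 2.91% and 2.88% in MDA-MB-468.

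With predicted pairing the called share followed different orders in the first 50 nt and the rest of the 5′ UTR, a difference that was not tested. In the rest, the called share rose with the pairing probability, from 1.06% (up to 0.1) to 8.00% (over 0.9) in MCF10A and from 1.46% to 5.82% in MDA-MB-468. In the first 50 nt, over all members, it was high at both ends. It was 3.53% up to 0.1, 2.71% between 0.1 and 0.5, 1.82% between 0.5 and 0.9 and 4.58% over 0.9 in MCF10A. In MDA-MB-468 it was 3.83%, 3.64%, 1.91% and 4.66%. The low end rested largely on EIF1 and TPT1, whose called members had a median pairing probability of 0.136 and 0.180 in MCF10A. Without these genes 2.10% and 1.95% of the members up to 0.1 were called, below the 2.35% and 3.02% between 0.1 and 0.5. Between 0.5 and 0.9 the share was then 1.69% and 1.67%, and over 0.9 it was 4.58% and 4.66%, the highest class in each line. The called members of BRI3 and EI24 had medians of 0.890 and 0.905 in MCF10A, and those of EGR1 0.377. The pairing was predicted from the sequence alone for 70 °C, not for the 60 °C of the bisulfite step, and was not measured.

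**Figure D4:**
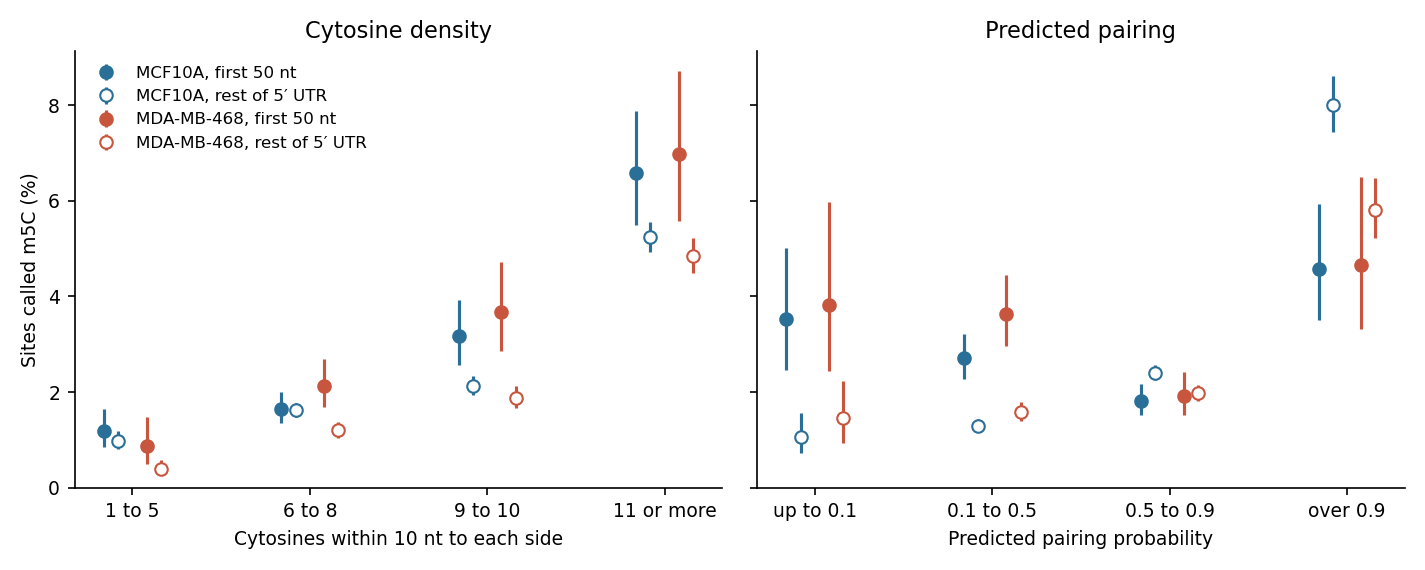
Percent of sites called m5C by the number of cytosines within 10 nt to each side and by predicted pairing probability, in the first 50 nt (filled) and the rest of the 5′ UTR (open), with 95% Wilson intervals of counting error. The share rose with cytosine density in both regions to 4.85% or more, while the rise with pairing was steady only in the rest of the 5′ UTR.

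Windows of mRNAs that start with C and 4 pyrimidines, as a TOP mRNA does, had 64 of 994 members called in MCF10A (6.44%) and 41 of 368 in the MDA-MB-468 library (11.1%), against 2.16% and 2.45% of the others. Without EIF1 and TPT1 the shares were 4.43% and 6.57%, against 2.02% and 2.22%. These starts were found in 128 and 58 of the genes, among them TPT1.

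Between the libraries, calls were shared in part. Of the 4865 members kept in both, 194 were called in MCF10A and 166 in the MDA-MB-468 library, and 99 in both, which is 51% of the first and 59.6% of the second. Over all sites kept in both libraries the shares were 52.7% and 67.0%, and over the rest of the 5′ UTR 52.1% and 63.3%, so the sharing in the first 50 nt was not above the general level. Of 701 genes with members in both, 20 were called in each: BRI3, CRABP2, EGR1, EI24, EIF1, FTL, GSK3B, HMGB2, ILRUN, MYL12B, PITX1, RPS20, S100A11, SEC61G, SEMA3F, TPT1, TUBB, UBXN6, VEGFB and YWHAZ. They are 38.5% of the 52 called in MCF10A and 50% of the 40 called in MDA-MB-468. A gene called in each need not share a called cytosine. In HMGB2 the only MCF10A call was at nt 22, and the MDA-MB-468 calls were at nt 5 to 21. Over the 147 genes with at least 5 members and 200 counts in each line the window rates had a Pearson correlation of 0.871, or 0.648 without EIF1, and a Spearman correlation of 0.461. The genes share sequence, base composition and protocol between the libraries, and they are not replicates. Over 10% stood 12 of them in MCF10A and 10 in the MDA-MB-468 library, and 8 in both.

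**Figure D5:**
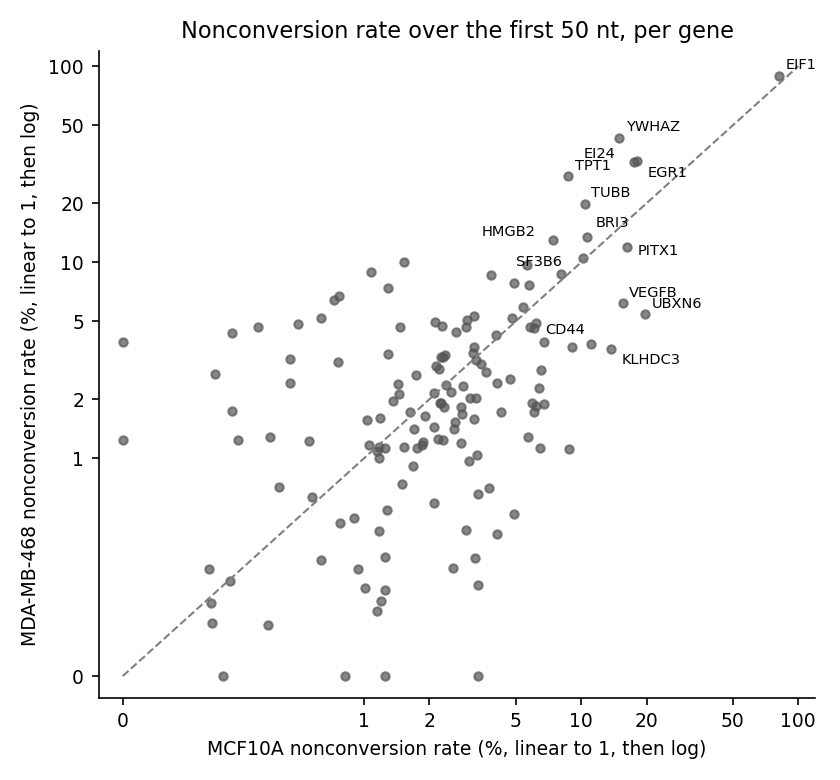
Nonconversion rate over the first 50 nt in each line for the 147 genes with at least 5 members and 200 counts in each, on axes that are linear up to 1% and logarithmic above, with names at genes above 10% in a library and a dashed line of equal rates. EIF1 stands apart at 81.5% and 89.7%, and most genes lie below 10% in both.

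A test per site between the libraries (two-sided Fisher's exact test, Benjamini-Hochberg adjusted over the 812729 sites kept in both, threshold 0.05) called 7 members higher in MDA-MB-468 and 25 lower. Of all sites 0.0202% were higher and 0.0691% lower. The 32 members lay in 7 genes. The lower ones were 11 in CRABP2, 8 in IFITM1, 4 in CASP14 and 1 each in SEC61G and SNCG, and the higher ones 4 in TPT1 and 3 in COTL1. With a coverage of at least 20 in each library and the adjustment repeated, the count was 9, of which 7 were higher and 2 lower. CRABP2, IFITM1, CASP14 and SNCG lie outside the naming rule and were added after their values were seen.

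CRABP2, a retinoic acid binding protein, had 10 to 15 counts per differential cytosine in MCF10A, of which 9 to 14 were unconverted, and 76 to 220 in MDA-MB-468, of which 4 to 11 were. The ratios were 90% to 100% and 2.73% to 8.21%, with adjusted p from Fisher's exact test between 5.28e-13 and 3.61e-05. IFITM1, an interferon-induced membrane protein, had 8 to 10 unconverted of 10 to 14 counts in MCF10A and 2 to 4 of 129 to 191 in MDA-MB-468. In CASP14, a caspase of keratinocyte differentiation, they were 9 to 10 of 10 counts and 4 to 7 of 179 to 260. Along the MCF10A mRNA of CRABP2 the level ran on, with 44.2% in the CDS and 94.0% in the 3′ UTR, where all 20 kept sites were called. All 70 kept 3′ UTR sites of CASP14 were called too, at 98.7%. In MDA-MB-468 the 3′ UTR rates were 1.55% for CRABP2 and 6.79% for CASP14. In these 3 genes the libraries differed by a few unconverted counts and by a coverage many times higher in MDA-MB-468. In such bulk samples fewer cells that express a gene and less of its RNA per cell cannot be told apart. Without the 3 genes 9 differential members remained, 7 higher and 2 lower.

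SEC61G, a subunit of the protein translocation channel of the endoplasmic reticulum, had the largest difference among the members with a coverage of at least 20 in each library. At nt 6 (chr7:54826899) 18 of 24 counts were unconverted in MCF10A (75%) and 7 of 37 in the MDA-MB-468 library (18.9%), with an adjusted p of 0.0227 by Fisher's exact test. All 3 of its members were called in each library, and its window rate was 74.0% and 20.8%. As in EIF1 the level ran on past the window, here into the coding sequence: beyond nt 100 up to nt 150 it was 69.8% and 11%. The unconverted counts there were 7 to 20 and 5 to 22, at a median coverage of 20 and 133. The annotation names 1 pseudogene of SEC61G and 2 of COTL1.

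COTL1, an actin-binding protein, was the opposite. At nt 45, 46 and 49 no count of 89, none of 95 and 2 of 110 were unconverted in MCF10A, and 9 of 36, 9 of 38 and 11 of 41 in MDA-MB-468, with adjusted p of 0.00887, 0.00865 and 0.0134 by Fisher's exact test. The MDA-MB-468 block continued at nt 51 to 75, with 16% against 0.709% in MCF10A. TPT1 was higher in MDA-MB-468 at 4 members, for example at nt 38 with 27 of 457 counts in MCF10A and 18 of 78 in the MDA-MB-468 library (adjusted p = 0.0133 by Fisher's exact test). There, too, the coverage differed more than the unconverted counts, now with the higher coverage in MCF10A.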

How the data were processed

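Poly(A)+ RNA of each line was bisulfite-treated and sequenced, 1 library per line. Per the methods and labels, the authors trimmed reads with Trim Galore, aligned them to hg19 with MeRanGs and called cytosines with MeRanCall of MeRanTK. The labels also list Bismark, and versions are not given in the sources used here. The deposited values are raw counts of unconverted and converted reads per cytosine, for 3146911 sites in MCF10A and 3489803 in the MDA-MB-468 library, with a lowest coverage of 5. The structure filter that the methods name was not applied in these files and not repeated here, so unconverted counts from paired RNA can be among the calls.

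Kept were cytosines covered by 10 counts or more that lay on an exon of a GENCODE v44lift37 basic or canonical transcript of their own strand, plus mitochondrial ones, giving 60580279 counts in MCF10A and 42430422 in the MDA-MB-468 library. Tests were run with SciPy 1.17.1 in Python 3.11.15 with NumPy 2.4.6 and pandas 2.3.3, and tested on simulated data. Pairing was predicted with ViennaRNA 2.7.2 (window 300, span 150, 70 °C), and plots were drawn with Matplotlib 3.10.9. QNB, the differential test of the methods, was not installed here, and Fisher's exact test per site was used in its place.

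The rule for members uses no conversion value, but it and the gene lists were chosen with earlier results of these data known. Genes were named as the 10 with the highest window rate per line (at least 5 members and 200 counts in each line), the 3 deepest called members per line with a ratio of at least 20%, the 5 largest differences at a coverage of at least 20, up to 3 deepest genes per list and the 5 deepest genes with no call. All were computed, and those that the results turn on are described. Alternatives covered coverage, background, test, ratio, pairing, annotation overlap, window and single genes. Those without EIF1 and TPT1, or without CRABP2, IFITM1 and CASP14, were chosen after seeing the data.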

Additional observations from a re-analysis of the deposited data

How the results depend on the processing

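Of 96 alternative values for 15 results, 50 stayed within the limits set and 46 moved (a count by over 1.5 times, a rate or share beyond its counting interval). The causes were not tested, but most alternatives leave fewer sites by construction. With a coverage of at least 20, MDA-MB-468 had 122 calls in 28 genes, the rates were 3.08% in MCF10A and 4.10% in the MDA-MB-468 library, the share ratios of the first 50 nt over the rest of the 5′ UTR 1.27 and 1.53, the differential members 9 (2 lower), and the shared calls 69.1% and 70% of each list. Without cytosines of pairing probability over 0.5, calls were 153 and 109 in 44 and 26 genes, rates 3.46% and 4.78%, share ratios 2.23 and 2.33, differential members 18 (3 higher and 15 lower) and shared calls 58.1% and 67.8%. The first 30 nt held 119 and 75 calls at rates of 3.30% and 3.66%, and the first 100 nt 834 and 494 calls. Without calls that have another within 10 nt, 27 and 11 calls in 27 and 10 genes were left. Against the rate of the windows themselves MDA-MB-468 had 134 calls in 24 genes. Without TPT1, the gene with the most calls, the rates were 3.18% and 3.69%. Without EIF1 and TPT1 they were 2.93% and 3.14%, the MDA-MB-468 share ratio was 1.12 and the shared calls 40.6% and 49.2%. Without CRABP2 21 differential members remained (14 lower), and without CRABP2, IFITM1 and CASP14 9 (2 lower). Of 80 alternative window rates of named genes 13 moved, among them UBXN6 in MCF10A, at 11.8% with a coverage of at least 20, and PITX1 in MCF10A, at 3.85% without paired cytosines. No pairing of replicate libraries was possible because the labels give no replicate numbers and each line has 1 library.

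At a coverage of 10 the lowest ratio that made a call was 40%, and coverage was lowest near the cap. The start sites are those of the annotation and were not measured in these cells.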
